A study of Mus musculus with 12 samples.

Results

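The ETS transcription factor family was followed in cultured mouse aortic endothelial cells through 9 of its genes: Ets1, Ets2, Elk3, Elk4, Elf1, Elf2, Etv6, Gabpa and Erf. Members were the probe sets whose annotated symbol was 1 of these names, which gave 18 of the 20523 probe sets and 9 of the 11015 genes on the table. The study compared 4 groups of cells from mice aged 4 weeks, each with its own combination of genotype and virus. The arrays titled Ets1/2 null (n = 2) came from Ets1-/-; Ets2fl/fl cells given lentiviral egfp-Cre. The arrays titled Ets1 null (n = 3) came from Ets1-/-; Ets2fl/fl cells given lentiviral egfp without Cre. The arrays titled Ets2 null (n = 3) came from Ets1+/+; Ets2fl/fl cells given lentiviral egfp-Cre, and the wild type arrays (n = 3) from Ets1+/+; Ets2+/+ cells given lentiviral egfp. All cells were thus infected and cultured. The free-text descriptions of both single nulls call the gene in their title wild type; groups here follow title and genotype. By the labels, Cre was given to every group titled as lacking Ets2 and to no other. The effects of Cre and of Ets2 loss therefore cannot be told apart. Wild type was the only group without the floxed Ets2 allele. Each comparison with wild type thus also sets Ets2fl/fl against Ets2+/+ cells, and that part was not tested. The labels do not say whether each array stands for its own mouse, so p-values measure the spread between these arrays.

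ETS proteins share a winged helix DNA-binding domain, the ETS domain, which contacts sites built around a GGAA core. Several members can therefore occupy the same site, and in endothelial cells the family is known for its role in vessel growth and in the expression of endothelial genes. Whether the other members took over when Ets1 or Ets2 was lost was the question put to the data. Ets1 and Ets2 are closely related activators that respond to ERK phosphorylation. Elk3 and Elk4 are ternary complex factors that bind DNA together with serum response factor. Elf1 and Elf2 belong to the ELF subfamily, Gabpa is the DNA-binding subunit of the GA-binding protein, and Etv6 and Erf act as repressors.

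Values are deposited log2 RMA signals, and an array is 1 hybridised RNA sample. A column titled Ets1/2 null replicate 3 equalled the mean of replicates 1 and 2 in 20521 probe sets and was left out. The median over all probe sets was 8.29 to 8.30 in the 2 Ets1/2 null arrays and 9.05 to 9.15 in the other 9, so the Ets1/2 null arrays stood apart before any gene was considered. Each difference is therefore given as deposited and also after subtracting each array's median, called centred, and "rose" or "fell" is used for the Ets1/2 null arrays only where the limma call (Benjamini-Hochberg adjusted p under 0.05 over all probe sets) held on both scales. Centring raised every Ets1/2 null difference from the other groups. In practice a fall therefore depended on the centred call, and a rise on the deposited call, made against the lower median. Differences are log2 values with limma's standard error (SE), and adjusted p-values are limma's. The Y-linked Eif2s3y signal marked wild type replicate 1 and the 3 Ets2 null arrays as male, and Xist was lowest in these arrays. Wild type replicate 3 had low Eif2s3y (3.23). Its Xist lay between the male and the remaining arrays, at 6.85, 6.81 and 11.445 on 3 probe sets. Of 20 endothelial markers listed, 8 were on the table, and the array median over them was 6.54 to 7.51 in Ets1/2 null cells, 7.68 to 8.08 in Ets1 null cells, 8.91 to 10.10 in Ets2 null cells and 8.28 to 9.14 in wild type cells. Centred, it was -1.75 to -0.79 in Ets1/2 null cells, -1.47 to -1.06 in Ets1 null cells, -0.16 to 1.05 in Ets2 null cells and -0.84 to 0.09 in wild type cells, so the Ets1/2 null range overlapped the Ets1 null and wild type ranges. Over 9 of 10 listed fibroblast markers it was 7.17 to 10.69 in Ets1/2 null cells, 6.60 to 8.15 in Ets1 null cells, 9.88 to 11.21 in Ets2 null cells and 8.29 to 10.49 in wild type cells. Centred, the fibroblast median was -1.12 to 2.39 in Ets1/2 null cells, -2.53 to -0.999 in Ets1 null cells, 0.80 to 2.13 in Ets2 null cells and -0.82 to 1.45 in wild type cells. Over 4 of 8 epithelial or mesothelial markers it was 7.61 to 9.14 in Ets1/2 null cells, 9.20 to 9.60 in Ets1 null cells, 7.89 to 8.21 in Ets2 null cells and 7.52 to 9.55 in wild type cells. The Ets1 null arrays were below every wild type array in the endothelial and fibroblast lists on both scales, and the part of these marker levels in the results was not tested. In bulk RNA, fewer cells of a type and less RNA per cell cannot be told apart. The endothelial markers Cdh5, Pecam1, Tek, Tie1 and Vwf were not analysed here.

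Ets1, the gene deleted in the Ets1-/- genotype, had a lower signal in the Ets1 null arrays on all 4 of its probe sets, but the Ets1/2 null arrays, which carry the same Ets1-/- allele, did not follow on 2 of them as deposited, and on 3 after centring. Probe set 1452163_at read 10.02 and 10.29 in Ets1/2 null cells, 8.31, 8.76 and 9.17 in Ets1 null cells, 9.50, 9.55 and 9.88 in Ets2 null cells, and 10.26, 9.84 and 10.06 in wild type cells. Every Ets1 null array was below every other array, and the Ets1/2 null arrays overlapped the wild type ones. Probe set 1426725_s_at, annotated to the same source sequence, read 9.81 and 9.81 in Ets1/2 null cells, 8.13, 8.77 and 8.92 in Ets1 null cells, 9.40, 9.43 and 9.83 in Ets2 null cells, and 10.08, 9.67 and 9.73 in wild type cells. Again the Ets1 null arrays were lowest and the Ets1/2 null arrays overlapped wild type.

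The other pair of Ets1 probe sets shares another source sequence. Probe set 1422027_a_at read 6.49 and 7.05 in Ets1/2 null cells, 7.72, 8.57 and 8.51 in Ets1 null cells, 8.28, 8.32 and 8.08 in Ets2 null cells, and 8.69, 8.78 and 8.83 in wild type cells. Here the Ets1/2 null arrays were lowest. Probe set 1422028_a_at read 7.40 and 7.98 in Ets1/2 null cells, 6.95, 7.92 and 7.94 in Ets1 null cells, 7.67, 7.79 and 7.52 in Ets2 null cells, and 8.22, 8.22 and 8.48 in wild type cells. As deposited all 3 null groups were below wild type on it and overlapped each other. Centred, its Ets1/2 null readings of -0.90 and -0.31 overlapped the wild type range of -0.90 to -0.64 and were above every Ets1 null and Ets2 null array. The Ets1/2 null difference on Ets1 1422028_a_at was -0.61 from wild type (centred 0.18) and 0.09 from Ets1 null (centred 0.93, adjusted p = 0.0391). Part of the transcript can persist from a null allele, and where these probes lie relative to the deleted part was not analysed here.

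In Ets1 null against wild type cells, no Ets1 probe set passed the test. The difference was -1.31 ± 0.23 on 1452163_at (adjusted p = 0.197; centred -1.36) and -1.22 ± 0.22 on 1426725_s_at (adjusted p = 0.214). It was -0.70 ± 0.27 on 1422028_a_at (adjusted p = 0.493) and -0.50 ± 0.24 on 1422027_a_at (adjusted p = 0.556). On all 4 the 3 Ets1 null arrays were below the 3 wild type arrays. With limma's array weights, 1452163_at (adjusted p = 0.0249) and 1426725_s_at (adjusted p = 0.0267) passed for Ets1. In that comparison 0.00487% of all probe sets were called as deposited, which is 1 probe set, and 1900 had an unadjusted p under 0.05.

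In Ets1/2 null against wild type cells, Ets1 fell on 1422027_a_at by 2.00 ± 0.27 as deposited (adjusted p = 0.000288). Its centred difference was -1.20 (adjusted p = 0.0075), and without Ets1/2 null replicate 1 the centred Ets1 call was lost (adjusted p = 0.0572). For Ets1 1452163_at the same comparison gave 0.10 ± 0.25 as deposited (adjusted p = 0.761) and 0.90 centred (adjusted p = 0.0235). For Ets1 1426725_s_at it gave -0.02 as deposited and 0.78 centred (adjusted p = 0.0395). The Ets1 probe sets therefore went opposite ways on the centred scale. Against Ets1 null cells, with which they share the Ets1 genotype, the Ets1/2 null cells rose by 1.41 ± 0.25 on 1452163_at (adjusted p = 0.0016; centred 2.26) and by 1.20 ± 0.25 on 1426725_s_at (adjusted p = 0.00369; centred 2.04). On these probe sets the Ets1/2 null arrays thus read above the Ets1 null arrays, which share their Ets1-/- label, while on 1422027_a_at they were lowest as deposited. Whether the label holds was not tested, and every result on Ets1/2 null arrays below is a result on arrays labelled so.

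The agreement between Ets1 probe sets differed with the arrays counted. Over the 9 arrays other than Ets1/2 null, Pearson's r of the centred values ranged from 0.63 to 0.99 between pairs of Ets1 probe sets. Over all 11 arrays it ranged from -0.18 to 0.99. The pair 1426725_s_at and 1452163_at had 0.99 both ways, while the pair 1422027_a_at and 1422028_a_at had 0.99 over 9 arrays and 0.24 over 11. These are descriptions over arrays that share groups.

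Ets2, the floxed gene that Cre was to delete, passed the test on neither probe set in any comparison with wild type cells. Probe set 1416268_at read 11.02 and 9.63 in Ets1/2 null cells, 10.28, 10.37 and 10.54 in Ets1 null cells, 9.63, 9.35 and 10.13 in Ets2 null cells, and 9.72, 10.01 and 10.70 in wild type cells. The groups overlapped, and the 2 Ets1/2 null arrays were 1 of the highest and 1 of the lowest. Probe set 1447685_x_at read 8.36 and 7.03 in Ets1/2 null cells, 7.96, 7.85 and 7.87 in Ets1 null cells, 7.75, 7.60 and 7.82 in Ets2 null cells, and 7.61, 7.92 and 8.17 in wild type cells. Again the Ets1/2 null arrays held the highest and the lowest reading.

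For Ets2 1416268_at, Ets2 null against wild type cells gave -0.44 ± 0.38 (adjusted p = 0.540), with a 95% interval from -1.29 to 0.41. For Ets2 1447685_x_at it gave -0.18 ± 0.30 (adjusted p = 0.773). The Ets1/2 null difference from wild type on Ets2 1416268_at was 0.18 ± 0.42 (adjusted p = 0.746; centred 0.98, adjusted p = 0.0935). Between Ets1/2 null and Ets2 null cells the centred difference on Ets2 1416268_at was 1.40 (adjusted p = 0.0272), while the deposited one was 0.62 (adjusted p = 0.250). Without Ets1/2 null replicate 1 the centred Ets2 value was 0.71 (adjusted p = 0.206), so replicate 1 decided it. Ets2 signal was thus not detectably lower on arrays from floxed cells given Cre than on wild type arrays. Where the Ets2 probes lie relative to the floxed part was not analysed here, so whether Cre deleted Ets2 was not tested.

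**Figure D1:**
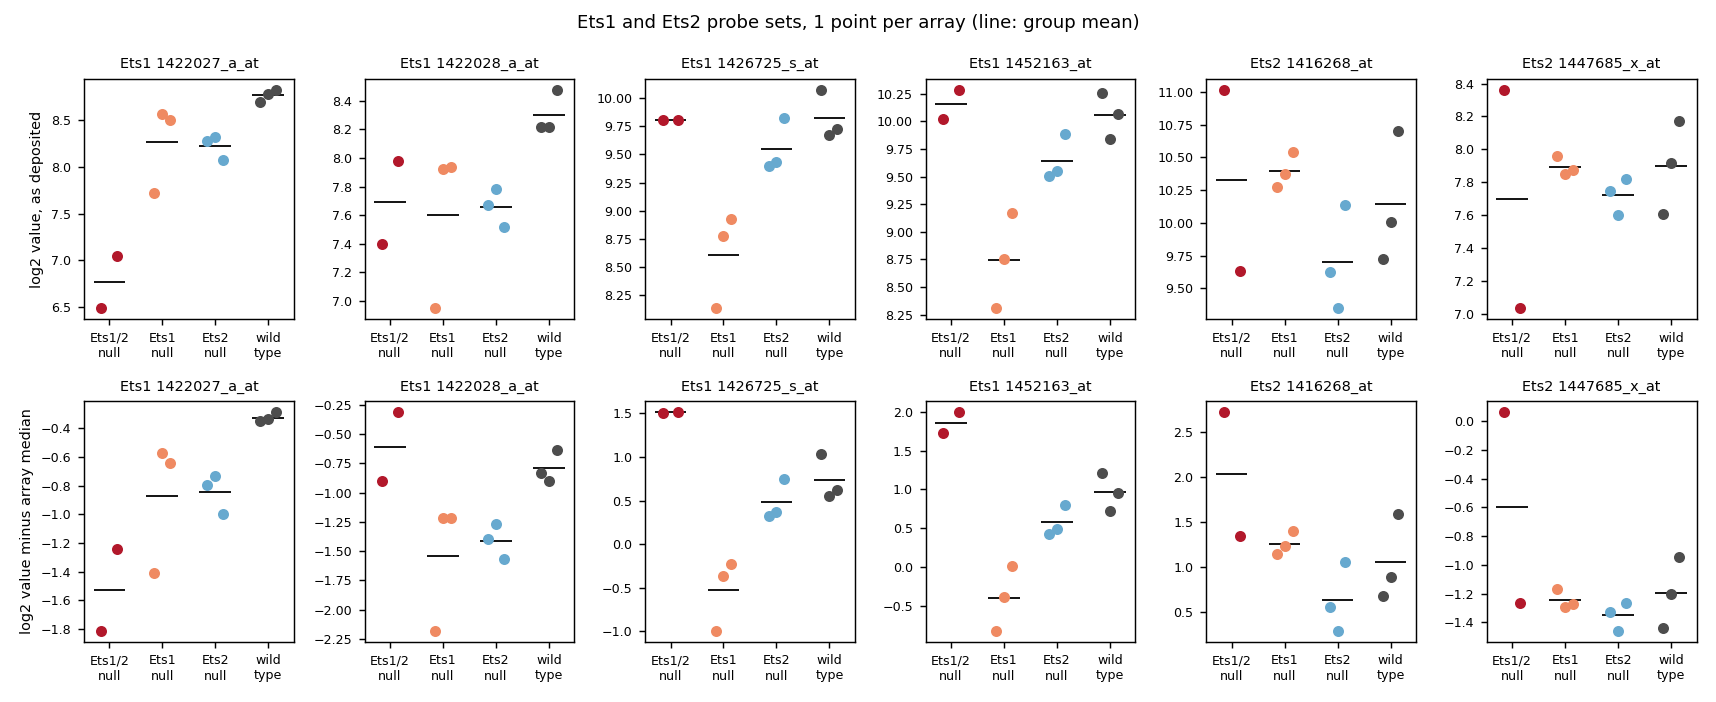
Log2 signal of the Ets1 and Ets2 probe sets, with 1 point per array, the group mean as a line and the groups from left to right Ets1/2 null, Ets1 null, Ets2 null and wild type. The upper row is as deposited and the lower row after subtracting each array's median; each panel has its own vertical axis. The Ets1/2 null points lie with or above wild type on 1426725_s_at and 1452163_at and, as deposited, below all other arrays on 1422027_a_at.

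In the arrays titled Ets1 null the other members showed no called change. Of the 12 probe sets of the 7 genes that were not deleted, 0 were called and 0 had an unadjusted p under 0.05 in either direction in Ets1 null against wild type cells (limma), against 0.00487% called among all probe sets on either scale. With array weights the count was also 0. Their differences ran from -0.29 to 0.21, with 4 positive and 8 negative. The highest upper bound of a 95% interval was 0.78, for Etv6 1434880_at. Ets2, the closest relative of Ets1, differed by 0.25 ± 0.38 on 1416268_at (95% interval -0.60 to 1.10; adjusted p = 0.874) and by -0.0035 ± 0.30 on Ets2 1447685_x_at. Its 3 Ets1 null readings on 1416268_at, 10.28 to 10.54, lay within the wild type range of 9.72 to 10.70.

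The arrays titled Ets2 null, whose Ets2 signal overlapped wild type, gave no called member either. In Ets2 null against wild type cells 0 of the 12 probe sets were called and 0 had an unadjusted p under 0.05 in either direction, while 0.58% of all probe sets, 119, were called (0.633% centred) and 4248 had an unadjusted p under 0.05. The differences ran from -0.55, for Etv6 1423401_at, to 0.21, for Elk3 1448797_at. The highest upper bound was 0.79, for Elk3 1417662_at (centred 0.82). Elk3 was the member whose readings split within the group. On Elk3 1448797_at the Ets2 null arrays read 12.47, 12.32 and 11.53, against 11.89, 11.83 and 11.96 in wild type. Replicates 1 and 2 were above every wild type array and replicate 3 below every one, a pattern repeated on Elk3 1435143_at and 1417662_at. Without Ets2 null replicate 3 the Elk3 differences were 0.50 on 1448797_at (adjusted p = 0.157) and 0.49 on 1435143_at (adjusted p = 0.182).

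Ets1 itself was lower in Ets2 null than in wild type arrays on all 4 probe sets, and none passed. The differences were -0.54 ± 0.24 on Ets1 1422027_a_at (adjusted p = 0.239) and -0.64 ± 0.27 on Ets1 1422028_a_at (adjusted p = 0.225), where the 3 arrays of each group did not overlap. They were -0.41 ± 0.23 on Ets1 1452163_at (adjusted p = 0.335) and -0.27 on Ets1 1426725_s_at (adjusted p = 0.522). All 3 Ets2 null arrays were male, against 1 of 3 wild type arrays.

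In the Ets1/2 null arrays 0 members rose against wild type and 4 probe sets of 4 genes fell on both scales: Ets1 1422027_a_at, Elk3 1417662_at, Erf 1435561_at and Gabpa 1450665_at. Among all probe sets 14.4% fell and 2.87% rose by that rule. These are the same probe set counts as lower after centring (2957) and higher as deposited (590), so the rule is no second check. As deposited, 10 of the 18 were called lower and 0 higher, against 46% lower and 2.87% higher among all probe sets, 48.8% in all. After centring 4 were lower and 2 higher, the 2 being Ets1 probe sets, against 14.4% lower and 21.6% higher, 36% in all. The median difference of the 18 was -0.78 as deposited, beside -0.63 over all probe sets, and 0.02 centred, beside 0.16. With so much of the array called, the deposited count says little about the family itself.

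Elk3, the ternary complex factor also known as Net, had the largest fall among the members. On 1417662_at it read 5.61 and 5.45 in Ets1/2 null cells, 8.74, 8.82 and 8.87 in Ets1 null cells, 9.53, 9.42 and 8.34 in Ets2 null cells, and 9.27, 9.10 and 8.61 in wild type cells. The Ets1/2 null readings were far below all others, which overlapped each other. Against wild type, Elk3 fell by 3.46 ± 0.34 (adjusted p = 5.6e-05), and the centred difference was -2.67 (adjusted p = 0.000708). The call held in all 31 alternatives tried on the 2 scales, among which the male term repeats the fit without wild type replicate 1.

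The size of the Elk3 difference depended on the probe set. On 1448797_at, annotated to the same source sequence, Elk3 read 10.92 and 10.75 in Ets1/2 null cells, 11.80, 11.80 and 11.65 in Ets1 null cells, 12.47, 12.32 and 11.53 in Ets2 null cells, and 11.89, 11.83 and 11.96 in wild type cells. On 1435143_at Elk3 read 9.21 and 8.93 in Ets1/2 null cells, 9.79, 9.93 and 9.93 in Ets1 null cells, 10.64, 10.67 and 9.69 in Ets2 null cells, and 10.29, 10.08 and 10.14 in wild type cells. Both had the Ets1/2 null arrays lowest, by less than 1417662_at did. The differences from wild type were -1.06 on Elk3 1448797_at (adjusted p = 0.0064; centred -0.26, adjusted p = 0.439) and -1.10 on Elk3 1435143_at (adjusted p = 0.00886; centred -0.31, adjusted p = 0.420). The 3 Elk3 probe sets had r of 0.84 to 0.95 with each other over the 9 arrays other than Ets1/2 null (centred values).

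Erf is a repressor that ERK signalling moves out of the nucleus. Its single probe set 1435561_at read 6.93 and 6.71 in Ets1/2 null cells, 9.27, 9.02 and 9.27 in Ets1 null cells, 9.44, 9.25 and 8.93 in Ets2 null cells, and 9.42, 9.43 and 9.31 in wild type cells. The Ets1/2 null arrays did not overlap any other group. Erf fell by 2.57 ± 0.18 against wild type (adjusted p = 9.3e-06; centred -1.77, adjusted p = 0.000222). The call held in all 32 alternatives, where the male term again repeats the fit without wild type replicate 1.

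Gabpa, which with its partner Gabpb activates many genes of mitochondria and of growth, fell on 1 of its 2 probe sets. On 1450665_at it read 7.92 and 7.18 in Ets1/2 null cells, 8.87, 9.12 and 9.32 in Ets1 null cells, 8.98, 9.12 and 8.59 in Ets2 null cells, and 9.39, 9.16 and 9.51 in wild type cells. Gabpa fell there by 1.80 ± 0.25 (adjusted p = 0.000425; centred -1.004, adjusted p = 0.0149), and without Ets1/2 null replicate 2 the centred difference was -0.64 (adjusted p = 0.120). On 1450664_at Gabpa read 9.47 and 9.40 in Ets1/2 null cells, 10.03, 10.01 and 10.32 in Ets1 null cells, 10.21, 10.39 and 10.10 in Ets2 null cells, and 10.25, 10.14 and 10.70 in wild type cells. That Gabpa difference was -0.93 (adjusted p = 0.00366) as deposited and -0.14 centred (adjusted p = 0.613), so the probe sets of Gabpa, which share a source sequence, gave different sizes.

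**Figure D2:**
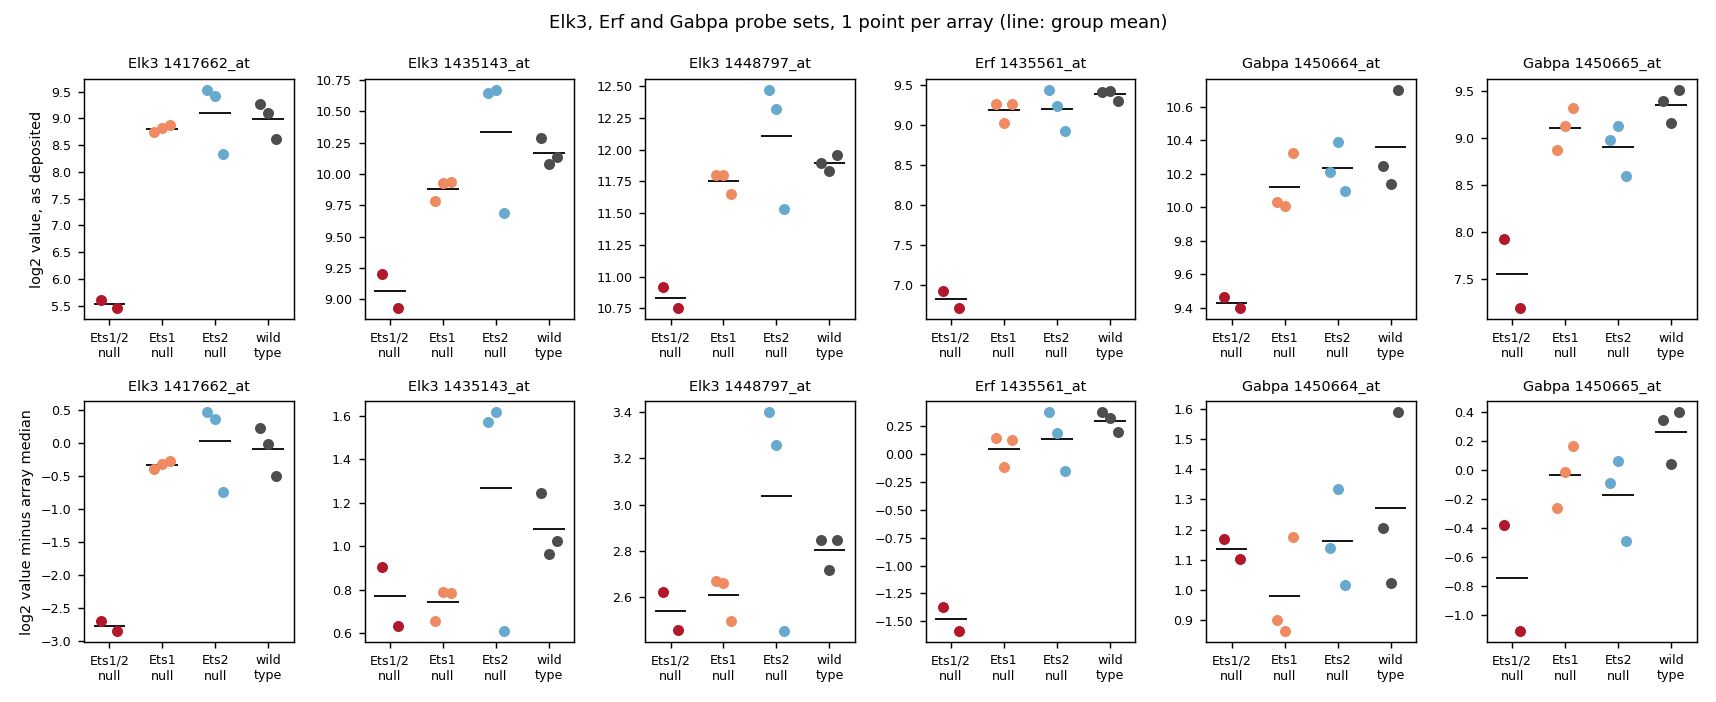
Log2 signal of the Elk3, Erf and Gabpa probe sets, with 1 point per array, the group mean as a line and the groups from left to right Ets1/2 null, Ets1 null, Ets2 null and wild type. The upper row is as deposited, the lower row after subtracting each array's median, and each panel has its own axis. The Ets1/2 null points are lowest in every upper panel, and in the lower row they stay apart from all other arrays on Elk3 1417662_at and Erf 1435561_at, and overlap the Ets2 null range on Gabpa 1450665_at.

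The promoter windows of the 3 genes that fell beside Ets1 are printed to show how far each holds the family's core. They are RefSeq windows on GRCm38.p6, from 250 bases before to 50 after the start, 5′ to 3′ on the gene's strand, with each GGAA or its reverse complement TTCC in capitals. Elk3 lies at chr10:93311110-93311409 (minus strand), Erf at chr7:25250709-25251008 (minus strand) and Gabpa at chr16:84834874-84835173 (plus strand).
Elk3: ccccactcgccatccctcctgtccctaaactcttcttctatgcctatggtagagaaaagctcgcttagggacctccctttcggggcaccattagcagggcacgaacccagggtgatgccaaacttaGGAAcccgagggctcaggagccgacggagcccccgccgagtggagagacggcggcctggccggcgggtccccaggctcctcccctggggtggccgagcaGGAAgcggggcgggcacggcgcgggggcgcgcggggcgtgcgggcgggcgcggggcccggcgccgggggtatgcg
Erf: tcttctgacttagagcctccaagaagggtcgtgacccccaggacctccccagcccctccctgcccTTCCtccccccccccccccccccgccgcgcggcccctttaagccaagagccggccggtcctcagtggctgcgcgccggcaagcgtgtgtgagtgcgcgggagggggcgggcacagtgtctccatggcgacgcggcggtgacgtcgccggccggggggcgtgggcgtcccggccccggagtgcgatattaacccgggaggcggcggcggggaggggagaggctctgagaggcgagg
Gabpa: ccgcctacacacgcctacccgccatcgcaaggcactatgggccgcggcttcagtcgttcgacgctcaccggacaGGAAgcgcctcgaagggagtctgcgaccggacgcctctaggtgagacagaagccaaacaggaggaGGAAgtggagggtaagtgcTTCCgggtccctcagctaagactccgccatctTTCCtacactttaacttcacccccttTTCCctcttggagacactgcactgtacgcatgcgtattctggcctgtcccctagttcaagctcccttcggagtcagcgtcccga
The Elk3 window holds 2 GGAA and 0 TTCC, the Erf window 0 and 1, and the Gabpa window 2 and 3. The longer motif CGGAAG, searched on both strands (reverse complement CTTCCG), is in 16.9% of the 32851 RefSeq windows of this length and in at least 1 window of 18.8% of 27025 genes. It is in a window of 3 of the 8 members that have one, Elk4, Elf2 and Gabpa, and not in these windows of Elk3 and Erf. A match is a description of letters and not a bound site.

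The remaining members had lower deposited means in Ets1/2 null than in wild type arrays, and none was called on the centred scale. Elk4, the ternary complex factor also called Sap1, read 6.75 and 6.65 in Ets1/2 null cells, 6.94, 7.15 and 7.003 in Ets1 null cells, 7.23, 7.08 and 6.999 in Ets2 null cells, and 7.26, 7.16 and 7.31 in wild type cells on 1422233_at. The Elk4 groups did not overlap between Ets1/2 null and any other. Its difference from wild type was -0.54 ± 0.13 (adjusted p = 0.00839) as deposited and 0.25 centred (adjusted p = 0.179), so the sign depended on the scale. On 1427162_a_at Elk4 read 10.02 and 10.16 in Ets1/2 null cells, 11.24, 10.55 and 10.46 in Ets1 null cells, 10.65, 10.83 and 10.45 in Ets2 null cells, and 10.46, 10.73 and 10.44 in wild type cells. Elk4 differed there by -0.45 (adjusted p = 0.145; centred 0.34, adjusted p = 0.304). The 2 Elk4 probe sets had r of -0.39 with each other over the 9 other arrays, centred, where 1422233_at ranged over 0.41 log2 units in all.

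Elf2 read 8.48 and 8.63 in Ets1/2 null cells, 9.54, 9.58 and 9.43 in Ets1 null cells, 9.39, 9.52 and 9.04 in Ets2 null cells, and 9.70, 9.23 and 8.99 in wild type cells. Elf2 differed from wild type by -0.75 ± 0.22 (adjusted p = 0.0196) as deposited and by 0.05 centred (adjusted p = 0.898). Elf1 read 8.92 and 8.73 in Ets1/2 null cells, 9.63, 9.96 and 9.54 in Ets1 null cells, 8.99, 9.69 and 9.49 in Ets2 null cells, and 10.11, 9.40 and 9.28 in wild type cells. Elf1 differed by -0.77 (adjusted p = 0.0509; centred 0.03). Both ELF differences were thus at most 0.05 from 0 after centring.

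Etv6 is the repressor also known as Tel. On 1434880_at Etv6 read 7.81 and 8.63 in Ets1/2 null cells, 9.56, 9.50 and 9.28 in Ets1 null cells, 9.43, 9.56 and 8.34 in Ets2 null cells, and 9.69, 9.34 and 9.23 in wild type cells. Its difference from wild type was -1.20 (adjusted p = 0.0242; centred -0.41, adjusted p = 0.435). On 1423401_at Etv6 read 7.01 and 7.62 in Ets1/2 null cells, 8.15, 8.29 and 7.74 in Ets1 null cells, 8.01, 7.77 and 6.88 in Ets2 null cells, and 8.16, 8.02 and 8.12 in wild type cells. That Etv6 difference was -0.79 (adjusted p = 0.0740; centred 0.01). Ets2 null replicate 3 was low on both Etv6 probe sets, as it was on those of Elk3.

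Whether any member rose in the Ets1/2 null arrays can be bounded. Among the 12 probe sets of genes that were not deleted, 0 were called higher than wild type on either scale. The highest upper bound of a 95% interval was 0.09 as deposited and 0.89 centred, both for Elk4 1427162_a_at. Against Ets1 null arrays 1 of the 12 was called higher after centring, Elk4 1422233_at with 0.51 (adjusted p = 0.0177), where the deposited value was -0.33 (adjusted p = 0.0680). Against Ets2 null arrays 0 of the 12 were called higher on either scale.

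**Figure D3:**
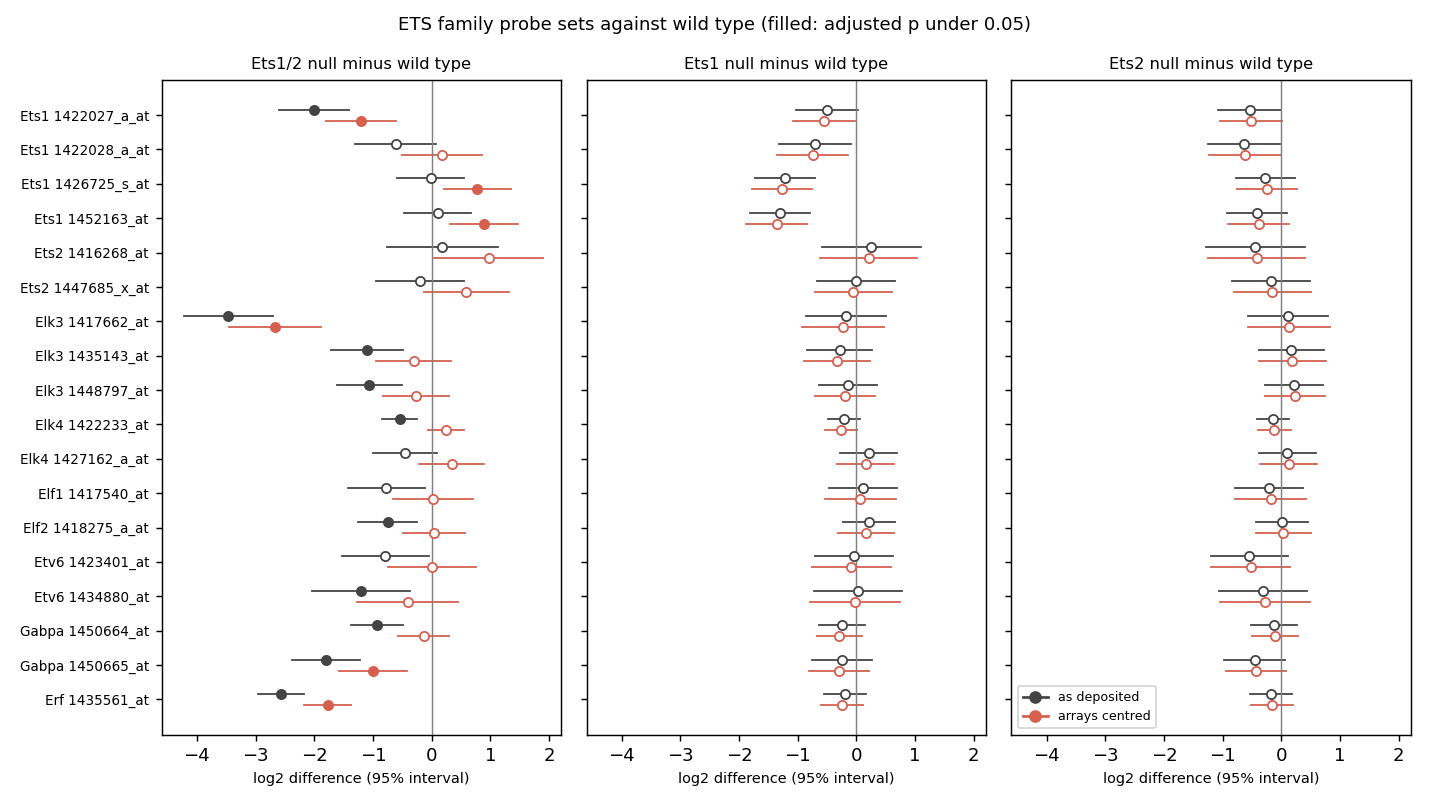
Log2 difference of each of the 18 ETS probe sets against wild type, for Ets1/2 null, Ets1 null and Ets2 null from left to right, with 95% intervals, where dark grey marks deposited and red centred values and a filled symbol marks an adjusted p under 0.05. Values right of 0 are higher in the null group. In the single null panels no symbol is filled, and in the Ets1/2 null panel Ets1 1422027_a_at, Elk3 1417662_at, Gabpa 1450665_at and Erf 1435561_at are filled left of 0 on both scales.

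Elk3 1417662_at and Erf were also lower in the Ets1/2 null arrays than in each single null on both scales, while Gabpa 1450665_at was not called on both. Against Ets1 null cells 2 probe sets rose, both of Ets1, and 2 fell on both scales, beside 1.76% that rose and 13.7% that fell among all probe sets. Elk3 1417662_at fell by 3.28 (adjusted p = 6.7e-05; centred -2.44) and Erf by 2.37 ± 0.18 (adjusted p = 1.13e-05; centred -1.52). As deposited 13 of the 18 were called, against 47.8% of all probe sets, and centred 6, against 35.4%. Against Ets2 null cells 0 rose and 2 fell, beside 3.12% and 14.9%. As deposited 9 were called, against 48.8%, and centred 5, against 35.2%. Elk3 1417662_at fell by 3.57 (centred -2.80) and Erf by 2.38 (centred -1.61). With a term for male arrays the centred Elk3 1417662_at difference from Ets2 null was -2.32 (adjusted p = 0.0595). Every Ets2 null array was male and both Ets1/2 null arrays were not. Only the wild type group held both male and other arrays, so the male term rests on wild type replicate 1 alone. These comparisons share the Ets1/2 null arrays with the one against wild type. Gabpa 1450665_at differed from Ets1 null by -1.55 as deposited (adjusted p = 0.000989; centred -0.70, adjusted p = 0.0586), and its difference from Ets2 null was -1.34 (centred -0.57, adjusted p = 0.113).

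The interaction is the Ets1/2 null minus Ets1 null difference less the Ets2 null minus wild type difference. It thus compares Cre-treated with egfp-only arrays between the labelled Ets1-/- and Ets1+/+ genotypes. In the Ets1-/- pair both groups were Ets2fl/fl, while in the Ets1+/+ pair only the Cre-treated group was. The part of the floxed allele was not tested. The interaction was called on both scales for 4 of the 18 probe sets, 2 in each direction. By that rule 1.44% of all probe sets were called positive and 9.36% negative. Ets1 1452163_at had 1.82 ± 0.34 (adjusted p = 0.00333; centred 2.64) and Ets1 1426725_s_at 1.47 ± 0.34 (adjusted p = 0.00886; centred 2.29). Elk3 1417662_at had -3.39 ± 0.45 (adjusted p = 0.000609; centred -2.56) and Erf -2.19 ± 0.24 (adjusted p = 0.000203; centred -1.37). For Elk3 1417662_at and Erf neither single null was called different from wild type. The Elk3 interaction of -3.39 stood beside an Ets1/2 null difference from wild type of -3.46 (centred -2.56 beside -2.67). For Erf, -2.19 stood beside -2.57 (centred -1.37 beside -1.77). As deposited, 7 of the 18 were called, against 35.5% of all probe sets, and centred 6, against 19.7%.

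Beyond the 9 genes, 5 further ETS genes were on the table with 9 probe sets: Elf4, Elk1, Etv3, Etv4 and Etv5. Fli1 and Erg, which are prominent in endothelial cells, were not analysed here. None of the 9 probe sets was called in either single null. In Ets2 null against wild type cells 5 differences were positive and 4 negative. On Etv5 1420998_at every Ets2 null array was above wild type, by 0.57 ± 0.13 (limma adjusted p = 0.0798, 95% interval 0.27 to 0.87, centred 0.59). The other Etv5 probe sets differed by 0.27 and 0.29 and overlapped wild type. Against wild type, the Ets1/2 null arrays gave 0 higher and 8 lower as deposited, and 1 higher and 5 lower centred. Among all probe sets 2.87% were called higher and 46% lower as deposited, and 21.6% higher and 14.4% lower centred. Their median was -1.43, beside -0.63 over all probe sets (centred -0.64, beside 0.16).

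Etv5 and Etv4, members of the PEA3 subfamily whose transcription responds to FGF and ERK signalling, changed most. On 1450082_s_at Etv5 read 5.23 and 4.98 in Ets1/2 null cells, 9.98, 9.66 and 9.70 in Ets1 null cells, 10.70, 10.25 and 10.16 in Ets2 null cells, and 9.91, 9.83 and 10.51 in wild type cells. Etv5 fell there by 4.98 ± 0.25 against wild type (adjusted p = 2.6e-06; centred -4.18). On 1420998_at Etv5 fell by 3.74 (adjusted p = 1.3e-06; centred -2.94) and on 1428142_at by 2.07 (adjusted p = 0.00204; centred -1.28, adjusted p = 0.0298). All 3 Etv5 probe sets thus fell on both scales.

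Etv4 read 7.38 and 7.78 in Ets1/2 null cells, 10.96, 10.57 and 10.28 in Ets1 null cells, 9.23, 8.94 and 7.26 in Ets2 null cells, and 10.12, 10.03 and 9.999 in wild type cells. Etv4 was thus below wild type in every Ets2 null and Ets1/2 null array and above it in every Ets1 null array. It fell by 2.46 ± 0.50 in Ets1/2 null cells (adjusted p = 0.00304; centred -1.67, adjusted p = 0.0289), while the Ets2 null difference of -1.57 ± 0.44 did not pass (adjusted p = 0.111). Both groups low in Etv4 were titled as lacking Ets2 and received Cre, and the groups above them neither. The Ets2 null arrays were also all male, the Ets1/2 null arrays were not, and the cause was not tested. Elk1, the third ternary complex factor, read 6.51 and 6.58 in Ets1/2 null cells, 7.97, 8.07 and 7.96 in Ets1 null cells, 8.06, 7.75 and 7.97 in Ets2 null cells, and 7.99, 7.89 and 8.04 in wild type cells. Elk1 fell by 1.43 ± 0.13 in Ets1/2 null cells (adjusted p = 4.5e-05; centred -0.64, adjusted p = 0.00665). Etv3 1418637_at was the 1 probe set called higher after centring, with 0.81 (adjusted p = 0.0164), where its deposited difference was 0.02.

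**Figure D4:**
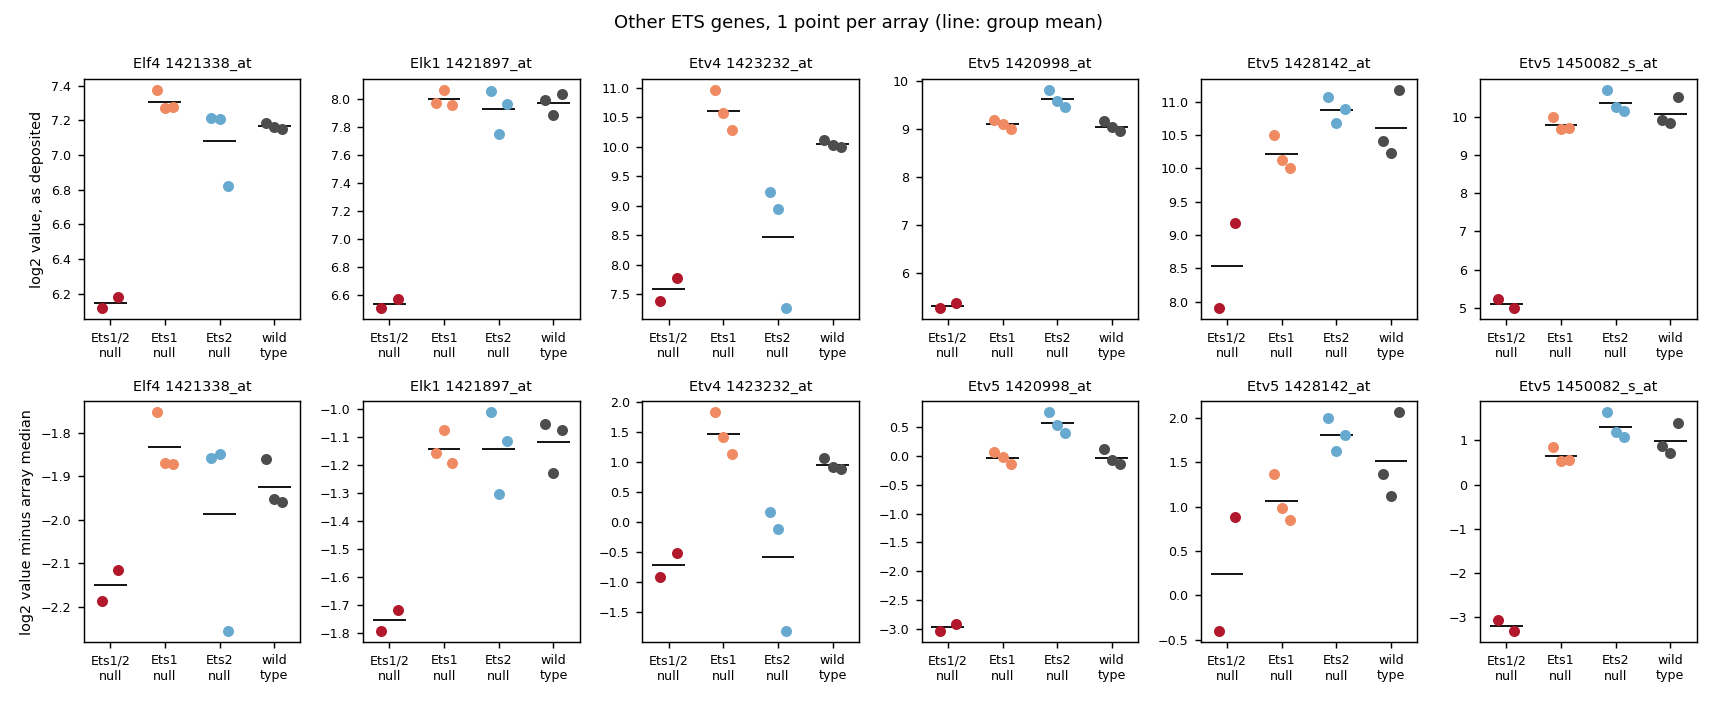
Log2 signal of Elf4, Elk1, Etv4 and Etv5, ETS genes outside the 9 members, with 1 point per array and the group mean as a line. Etv3 is not drawn. The groups from left to right are Ets1/2 null, Ets1 null, Ets2 null and wild type, as deposited above and after subtracting each array's median below. Each panel has its own axis. The Etv5 1450082_s_at points of the Ets1/2 null arrays are at 5.23 and 4.98, below all others, and the Etv4 points of the Ets2 null arrays lie below those of wild type.

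ETS partners and regulators were taken from a list of 46 genes, of which 34 were on the table with 70 probe sets. None was called in either single null. In Ets1/2 null against wild type cells 3 were higher and 35 lower as deposited, and 11 higher and 17 lower centred, with a median of -0.65 beside -0.63 over all probe sets. Those counts of 70 stand beside 2.87% higher and 46% lower among all probe sets as deposited, and 21.6% and 14.4% centred. Each value named here is from a single probe set, and whether other probe sets of these genes moved alike is not given. Stat5a 1450259_a_at, for a transcription factor of cytokine signalling, fell by 4.08 ± 0.34 (centred -3.29). Mapk14 1416704_at, for the stress kinase p38 alpha, fell by 3.48 ± 0.24 (centred -2.69). Another Mapk14 probe set, 1416703_at, had a positive centred interaction of 0.87 (limma, adjusted p = 0.0332). Runx1 1422865_at, for a factor that binds DNA together with Ets1, fell by 2.84 ± 0.58 (centred -2.05). The 3 that rose were probe sets of Crebbp, a histone acetyltransferase recruited by Ets1 (1.03 ± 0.26; centred 1.83), Mapk8 (1.27 ± 0.35; centred 2.06) and Camk2d (1.26 ± 0.27; centred 2.05).

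Genes reported as ETS targets came from a list of 41, of which 22 were on the table with 39 probe sets. None was called in either single null. In Ets1/2 null against wild type cells 0 were higher and 11 lower as deposited, and 3 higher and 5 lower centred, with a median of -0.87 beside -0.63 (centred -0.08 beside 0.16). Those counts of 39 stand beside the same array-wide shares of 2.87% higher and 46% lower as deposited, and 21.6% and 14.4% centred, so the deposited count of lower probe sets is under the array-wide share. The named values are again from a single probe set of each gene. Bcl2l1 1420887_a_at, for a protein that protects cells from apoptosis, fell by 4.03 ± 0.42 (centred -3.23). Thbd 1448529_at, for the thrombin receptor thrombomodulin, fell by 4.02 ± 1.08 (centred -3.23). Itga5 1423268_at, for the fibronectin receptor subunit, fell by 3.31 ± 0.43 (centred -2.52). After centring only, probe sets of Flt1 (1.88, adjusted p = 0.0399), Nrp1 (1.53, adjusted p = 0.0447) and Xiap (0.73, adjusted p = 0.0106) were called higher. The target list therefore held genes in both directions once arrays were centred.

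The probe sets most like those of the deleted genes were taken by Pearson's r of centred values over the 11 arrays, among 9379 candidates. For Ets1 1452163_at they were Pdzrn3 (r = 0.95), Btbd3 (r = 0.94) and Medag (r = 0.92). For Ets2 1416268_at they were 5530601H04Rik (r = 0.94), Fzd8 (r = 0.93) and Slc38a2 (r = 0.93). The arrays share groups and these values are descriptions.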

How the data were processed

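RNA of 4 groups of cultured mouse aortic endothelial cells was measured on Affymetrix arrays. The deposited values are log2 signals, 1 per probe set, made by the authors with RMA per the submitters' processing notes. Its version, any filter and whether the groups were normalised jointly were not given in the sources used here. Of 12 columns, 11 were used, because the third Ets1/2 null column equalled the mean of the other 2 in 99.9903% of 20523 probe sets (within 1e-06); the plan had named all 12. Symbols came from the platform's probe table, where 18824 probe sets had 1 symbol, 549 several and 1150 none.

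A model with 1 mean per group was fitted over all probe sets with limma 3.58.1 (R 4.3.3, lmFit and eBayes, two-sided, 7 residual degrees of freedom), on deposited and on median-centred values, with Benjamini-Hochberg adjustment over all probe sets and a threshold of 0.05. Comparisons, 6 in all, set each null group against wild type and Ets1/2 null against either single null, with the interaction. The number of arrays limits the precision. The fit was tested on simulated data. Alternatives were quantile normalisation, array weights, a male term, a replicate block, a filter on dim probe sets (6.5), fits of the compared groups alone, 1 or the mean probe set per gene, and leaving out each array. Counts of calls held on both scales were added after seeing the data.

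Every member probe set was given; from the partner and target lists the text named, for Ets1/2 null against wild type, up to 3 largest called differences in each direction. The members and all gene lists were chosen with earlier results of these data known. Promoter windows are RefSeq's (GRCm38.p6), and the Ets1 window is not used here. Pandas 2.3.3 and matplotlib 3.10.9 in Python 3.11.15 made tables and figures.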

Additional observations from a re-analysis of the deposited data

Results flagged for a closer look

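Of the 18 ETS probe sets, 7 had a called interaction as deposited, meaning that the Ets1/2 null minus Ets1 null difference and the Ets2 null minus wild type difference were not equal by a test between them (limma, adjusted p under 0.05). It was 1.47 for Ets1 1426725_s_at and 1.82 for Ets1 1452163_at. It was -3.39 for Elk3 1417662_at and -2.19 for Erf 1435561_at, and all 4 of these were called after centring too. It was -1.13 for Elk3 1448797_at, -0.97 for Elf2 1418275_a_at and -1.09 for Gabpa 1450665_at. After centring these 3 interactions were -0.30 for Elk3 1448797_at, -0.15 for Elf2 and -0.27 for Gabpa 1450665_at, and none of the 3 was called. All rest on the 2 arrays labelled Ets1/2 null, whose medians were 8.29 and 8.30 against 9.05 to 9.15 in the other arrays. The groups had 2 or 3 arrays, so no single array was tested for standing apart within its group.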

How the results depend on the processing

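Over 48 probe set results and their alternatives, 733 of 879 values kept their side of the threshold without a change of sign in a called value. Another 118 lost the call, 13 gained one and 15 changed sign where called under either setting. Changes of sign in values called under neither setting are counted within the 733. After centring the values that changed sign were, for Ets1/2 null against wild type, 0.78 (Ets1 1426725_s_at), 0.25 (Elk4 1422233_at) and 0.0453 (Elf2); against Ets1 null, 0.0268 (Elk3 1435143_at), 0.51 (Elk4 1422233_at), 0.18 (Elk4 1427162_a_at) and 0.15 (Gabpa 1450664_at); against Ets2 null, 0.37 (Elk4 1422233_at) and 0.0097 (Elf2); and for the interaction, 0.63 (Elk4 1422233_at). Under quantile normalisation they were 0.20, 0.43 and 0.36 for Elk4 1422233_at against wild type, Ets1 null and Ets2 null, 0.0326 for Elf2 against wild type and 0.0241 for Gabpa 1450664_at against Ets1 null. Both settings remove the lower median of the Ets1/2 null arrays by construction.

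The count of called members was 10, 13 and 9 in Ets1/2 null against wild type, Ets1 null and Ets2 null, and 7 for the interaction. In that order it was 6, 6 and 5 after centring (interaction 6), 5, 6 and 5 under quantile normalisation, and 5, 8, 4 and 4 with 1 probe set per gene, which tests fewer features. With the mean of each gene's probe sets it was 7 against Ets1 null, 5 against Ets2 null and 4 for the interaction. A male term gave 3 against Ets2 null and 4 for the interaction, and 1 of the 2 called on both scales against Ets2 null. That term rests on wild type replicate 1, the male array of the only group with both sexes. Against wild type and Ets1 null it gave 9033 and 9534 calls over all probe sets, the same as without that array. Array weights gave 2 in Ets1 null against wild type and 11 for the interaction. Leaving out 1 array at a time gave 8 to 14 against Ets1 null, 4 to 9 for the interaction and 2 to 4 called on both scales against Ets2 null; the low interaction count came without wild type 2, Ets1 null 2, Ets2 null 1 or Ets2 null 2, the low count against Ets1 null without Ets1/2 null 2, and the 4 without Ets2 null 3. The cause was not tested.

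Over all probe sets, Ets1 null against wild type had 1 call, 0 to 69 with other array sets, and 411 with array weights. Ets2 null against wild type had 119, between 0 (without Ets2 null 1, or with the compared arrays alone) and 260 (without wild type 3), 4 with a male term and 2687 with array weights. The interaction had 7283, 4034 after centring and 3536 under quantile normalisation; Ets1/2 null against Ets2 null had 10019, and 4541 with a male term. With centring and a male term together, 981 probe sets and 1 member were called against Ets2 null (7215 and 5 with centring alone), and 1775 and 4 for the interaction. Against wild type and Ets1 null the Ets1/2 null arrays had 10021 and 9812, and 6614 and 6262 under quantile normalisation. With the replicate number as a block the members called were 0, 0, 11, 14, 9 and 6 over the 6 comparisons, and Ets2 null against wild type had 0 calls in all. Same-numbered arrays had correlations of -0.31 to 0.10 between deviations from group means. Such deviations sum to 0 within groups of 2 or 3 arrays, so they cannot decide whether the numbers pair the arrays. Where 1 Ets1/2 null array was left, it was assumed to vary like the other groups. For the 12 probe sets of the 7 genes deleted in no group, the 95% intervals reached up to 0.79 in the single nulls as deposited and 0.82 centred. For Ets2 1416268_at in Ets1 null against wild type cells the interval reached 1.10 as deposited and 1.03 centred.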
